A study of Mus musculus with 2 samples.

Results

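The genes described here are the expressed mouse genes whose symbol is Zfp, for zinc finger protein, followed by a number. Of 353 such genes, 318 reached at least 1 FPKM (fragments per transcript length and sequencing depth, the unit of Cufflinks) in at least 1 of 2 libraries, and they were selected on these measured levels. They stood among 11777 genes that passed the same limit and 21896 genes in all. Expression was measured by RNA sequencing at E13.5 in the ventricular zone and subventricular zone (VZ-SVZ) of the cortex, in C57/BL6 embryos. One library came from Rcor2fl/fl embryos, in which both copies of Rcor2 are flanked by loxP sites and which served as the control. It is called the control library below. The other came from Rcor2cko embryos, in which Nestin-Cre deletes the floxed gene in the neural lineage, so that blood vessels, microglia and other cells outside this lineage keep it. Both genotypes were bred from Rcor2fl/+ mice carrying NesCre. The number of embryos behind each library is not given in the sources used here, and no other replicate was analysed. The comparison addresses which zinc finger genes differ in level when Rcor2, a co-repressor that works with the histone demethylase LSD1, is deleted.

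Zinc finger proteins of the C2H2 type hold a zinc ion between a pair of cysteines and a pair of histidines, and rows of such fingers read DNA. Many carry a KRAB domain, which recruits Trim28 and through it the histone methyltransferase Setdb1, and many KRAB genes lie in tandem clusters that keep copies of transposable elements silent. Other Zfp genes are single, old genes with roles in neural development, RNA processing or promoter activation, and the shared name is one of protein structure, not of a common pathway.

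With 1 library per genotype there is no replicate error and no test between the genotypes. Changes are log2 ratios of (FPKM + 0.1), Rcor2cko over Rcor2fl/fl, which understate the change of low genes, and a gene is called higher or lower past 1.5-fold. For genes with 1 transcript model, whole fragment numbers were recovered from the FPKM steps, and an exact 95% interval (Clopper-Pearson) of the ratio without pseudocount was computed. These intervals cover counting error only and compare the 2 libraries, not the genotypes. The scaling totals behind the FPKM values were 18841070 fragments in the control and 25481460 in the Rcor2cko library. At the median transcript length of the Zfp genes a count of 3 fragments, the upper limit that a count of 0 allows, equals 0.0483 and 0.0358 FPKM.

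Facts of the 2 libraries touch every value below. Rcor2 itself was at 90.6 FPKM in the control and 55.7 in the Rcor2cko library, a change of -0.70 (interval -0.78 to -0.63), so the targeted gene was lower in the library labelled as its knockout. These values cover the whole gene and do not measure the deleted part. The paper reports no RNA over the exons between the loxP sites in Rcor2cko cortex. By western blot it reports complete loss of the protein in Rcor2cko brains. All 9 progenitor markers, among them Pax6, Sox2 and Emx1, were detected in both libraries, with a median change of -0.25. The lowest value, -0.62, was that of Emx2, the only 1 past 1.5-fold (21.5 and 13.9 FPKM). The highest, 0.53, was that of Fabp7 (372 and 539 FPKM). Ventral telencephalon markers such as Dlx2 and Gad1 were higher in 8 of 8 cases, and their summed level went from 17.2 to 56.6 FPKM. Cajal-Retzius markers were lower in 4 of 4, from 46.4 to 19.7 FPKM, and Reln from 36.5 to 15.6. Of the choroid plexus markers, 3 of 3 that could be compared, of 6 listed, were higher, and the summed level of the 6 was 0.796 and 62.3 FPKM, or 0.796 and 4.45 without Ttr, which was listed at 0 in the control. Microglia markers were higher in 3 of 5 compared, the summed level of all 6 listed being 9.92 and 15.4 FPKM, and no endothelial, erythroid or neuronal marker passed 1.5-fold. Xist was at 177 FPKM in the control and 0.109 in the Rcor2cko library, and Eif2s3y at 0 and 19.8, so that embryo sex and genotype cannot be told apart. The part of these differences in the values of the Zfp genes was not tested.

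Most Zfp genes had nearly the same level in both libraries. Of 318, 4 (1.26%) exceeded the control by more than 1.5-fold in the Rcor2cko library, where 3.79% of all 11777 genes were, and 3 (0.943%) were lower, where 1.76% of all genes were. In both directions together this is 7 genes (2.20%) beside 5.54% of all genes. Since the levels that chose the genes are the levels compared, these shares are descriptions. The median change was -0.0027 for the Zfp genes and -0.03 for all genes, and 269 (84.6%) of the Zfp genes lay within 0.25 of 0 on the log2 scale beside 78.1% of all genes. Changes had an SD of 0.28 across Zfp genes and 0.45 across all genes, and 0.20 and 0.25 across those that reached 1 FPKM in both libraries. Higher values were found for 155 and lower values for 163 Zfp genes.

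The calls fell mostly among low genes, as they did over all genes. Below a mean of 2 FPKM, 5 of 36 Zfp genes (13.9%) passed 1.5-fold, where 26.5% of 1206 genes did. Between 2 and 5 FPKM it was 1 of 85 (1.18%) beside 8.56%, and from 5 FPKM on 1 of 197 (0.508%) beside 1.87%. The lowest of these genes rest on as few as 6 fragments in 1 library. Among the 257 Zfp genes with recovered fragments, the counting interval lay wholly above 0 in 32 (12.5%) and wholly below 0 in 35 (13.6%). Over all 8460 such genes these shares were 14.0% and 23.2%. Whether an interval leaves out 0 depends on the number of fragments, and these shares were not split by level, so their difference is not read. The median number of fragments per Zfp gene was 373 and 502, and the median interval was 0.39 log2 units wide, so that changes well under 1.5-fold could be seen above counting error for a typical member.

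**Figure D1:**
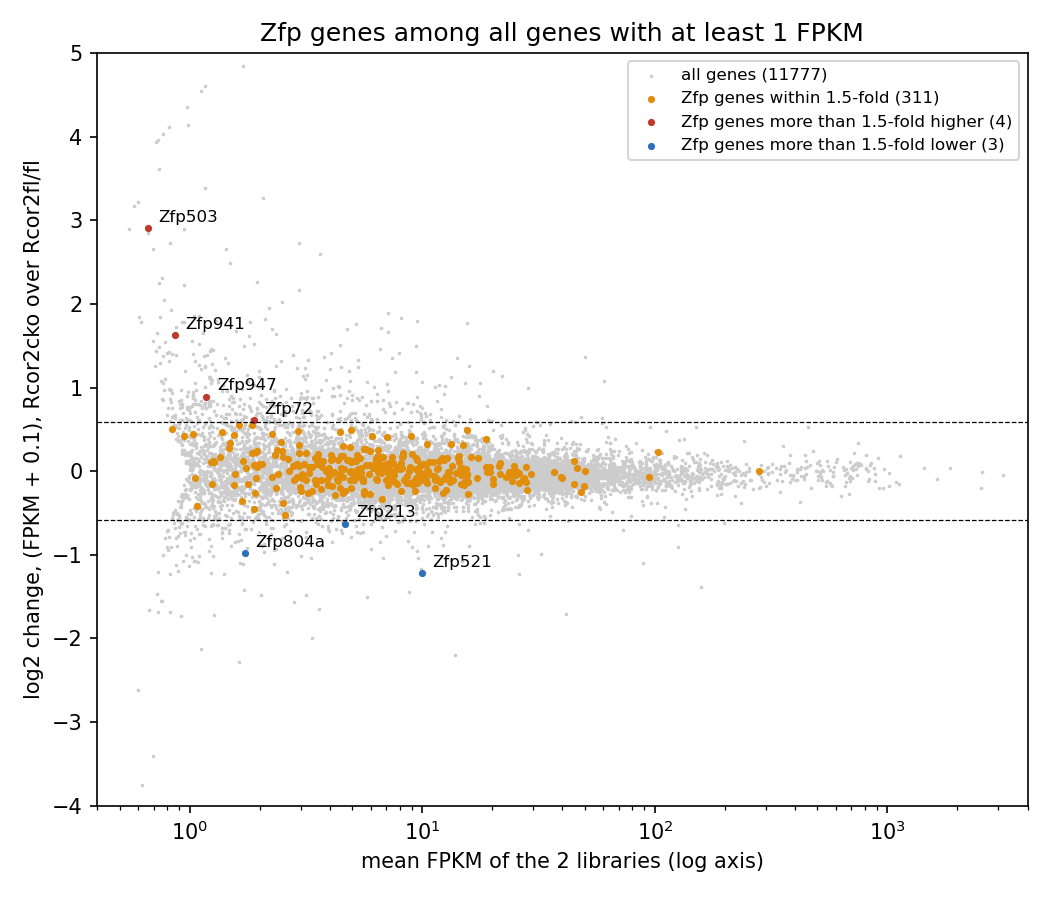
Change between the libraries against mean level. The horizontal axis is the mean FPKM of the 2 libraries on a log axis, and the vertical axis the log2 change of (FPKM + 0.1). Grey points are the 11777 genes, except the most changed ones, which lie beyond the cut vertical axis. Orange points are the 311 Zfp genes within 1.5-fold, red and blue points the 4 higher and 3 lower Zfp genes, and dashed lines mark 1.5-fold. The Zfp genes lie in a narrow band around 0, and only Zfp521 passes 1.5-fold at a mean of at least 5 FPKM.

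The level of 1 FPKM cut through a continuum. Of the 318 genes, 311 reached it in both libraries, 6 in the Rcor2cko library only (Zfp455, Zfp503, Zfp52, Zfp54, Zfp941 and Zfp947) and 1 in the control only (Zfp879, at 1.25 and 0.907 FPKM). The 3 genes just inside were Zfp455 at 0.675 FPKM in the control and 1.0003 in the Rcor2cko library, Zfp595 at 1.09 and 1.02, and Zfp54 at 0.793 and 1.09. Just outside were Zfp354b at 0.715 and 0.958, Zfp953 at 0.895 and 0.742, and Zfp78 at 0.838 and 0.557. A gene that entered through 1 library only had to differ between them, which bears on 3 of the 4 genes called higher (Zfp503, Zfp941 and Zfp947). Of the 35 genes below the limit in both libraries, 8 were listed at 0 in both.

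Per length, the family is of moderate expression, with a median of 6.49 FPKM in the control and 6.66 in the Rcor2cko library beside 10.5 and 10.4 for all genes. Mean levels ran from 0.661 FPKM for Zfp503 to 281 for Zfp238, and 33 genes had a mean of at least 20 FPKM. Zfp238 (also called RP58), a repressor needed for the maturation of cortical neurons, stood far above the rest at 280.8 FPKM in the control and 281.1 in the Rcor2cko library. Next came Zfp57, which protects imprinted methylation marks, at 95.03 and 112 FPKM, and Zfp207 (BuGZ), a spindle assembly and splicing factor, at 97.0 and 92.4. These neighbours in the order of levels changed places between the libraries. Zfp146 (49.95 and 50.2), Zfp664 (52.9 and 46.7), Zfp462 (52.3 and 44.2), Zfp445 (43.2 and 46.9), Zfp422 (45.6 and 46.9), Zfp637 (47.2 and 42.4) and Zfp740 (41.1 and 39.0) completed the 10 highest, within a range of levels so close that their order differed between the libraries. None of the 10 passed 1.5-fold, beside 1.87% of all genes with a mean of at least 5 FPKM. The changes of the 10 ran from -0.24 for Zfp462 to 0.23 for Zfp57.

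The largest difference was in Zfp503 (Nolz1; chr14:22803184-22808823 in mm9, minus strand), a repressor known from the developing striatum and from motor neurons. It was at 0.0792 FPKM in the control, from 6 fragments, and at 1.24 in the Rcor2cko library, from 127 fragments. The log2 change was 2.90 with the pseudocount, and the counting interval of the ratio without it was 2.81 to 5.44. Zfp503 was thus near the floor in the control and low in the Rcor2cko library, where markers of the ventral telencephalon were also higher. Its paralog Zfp703, which belongs to the same small family of proteins with an unusual zinc finger, was at 12.9 and 18.3 FPKM, a change of 0.50 that did not pass 1.5-fold. Neither of these proteins held a match to the C2H2 pattern searched here.

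Zfp941 (chr7:147995576-148008077, minus strand), a KRAB protein with 9 fingers, was second, at 0.371 FPKM from 26 fragments in the control and 1.35 FPKM from 128 fragments in the Rcor2cko library. Its change was 1.63 (interval 1.25 to 2.53). Zfp941 lies alone, with no other Zfp gene within 200 kb, and no 50-base stretch of its transcript was found in another protein-coding gene. Zfp72 (chr13:74508874-74514014, minus strand), with 11 fingers, was at 1.48 and 2.31 FPKM, from 40 and 84 fragments, a change of 0.61 (0.08 to 1.22). This is just past the limit of 1.5-fold, and the interval nearly reaches 0. The 150 bases before the starts of the 2 most changed genes are shown, from RefSeq promoters on GRCm38.p6, a later build than that of the levels, with CCAAT boxes (CCAAT or its complement ATTGG) in capitals. Zfp503 lies at chr14:21989602-21989751 and Zfp941 at chr7:140822179-140822328, both on the minus strand.
Zfp503: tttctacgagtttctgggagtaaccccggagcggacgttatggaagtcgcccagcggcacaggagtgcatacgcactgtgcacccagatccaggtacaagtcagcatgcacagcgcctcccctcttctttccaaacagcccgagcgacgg
Zfp941: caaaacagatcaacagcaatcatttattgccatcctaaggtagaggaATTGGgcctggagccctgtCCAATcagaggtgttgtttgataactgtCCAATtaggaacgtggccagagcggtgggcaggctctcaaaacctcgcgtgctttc
The Zfp503 stretch held 11 CG dinucleotides and none of the motifs searched. The Zfp941 stretch held 4 CG dinucleotides and 3 CCAAT boxes.

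Among the genes that were lower, Zfp521 (chr18:13845523-14131242, minus strand) rested on the most reads. This protein of 26 matched fingers promotes the entry of embryonic stem cells into the neural lineage and is also known from blood and striatal cells. It was at 13.97 FPKM in the control, from 1568 fragments, and at 5.94 in the Rcor2cko library, from 900. The change was -1.22 (interval -1.35 to -1.12). In tissue of mixed cells, fewer cells of a type and less RNA per cell cannot be told apart. The Cajal-Retzius markers, 4 of 4 lower with a median change of -1.12, moved with it, and their part in the value was not tested. Its close paralog Zfp423, with 27 matched fingers and a role in cerebellar and midline development, was on the other side of 0, at 5.19 and 6.96 FPKM, a change of 0.42 (0.26 to 0.59) that did not pass 1.5-fold.

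Zfp804a (chr2:81893815-82100035, plus strand), whose human counterpart is known from genetic studies of schizophrenia, has a single finger. It was at 2.33 FPKM from 175 fragments in the control and at 1.13 from 115 in the Rcor2cko library, a change of -0.98 (-1.39 to -0.69). Zfp213 (chr17:23693734-23701193, minus strand), with 5 fingers, was at 5.69 and 3.65 FPKM, from 266 and 230 fragments, a change of -0.63 (-0.90 to -0.38). All 3 genes that were lower lacked the KRAB pattern, as did 176 of the 315 Zfp genes with a protein model. The counting intervals of these 3 lay below 0. The 95% FPKM intervals deposited with the levels are wider than counting alone gives. By those, the libraries did not overlap for 4 of the 318 genes, Zfp503 and Zfp941 on the higher side and Zfp521 and Zfp804a on the lower. The share over all genes was not computed, so nothing is read from this count.

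**Figure D2:**
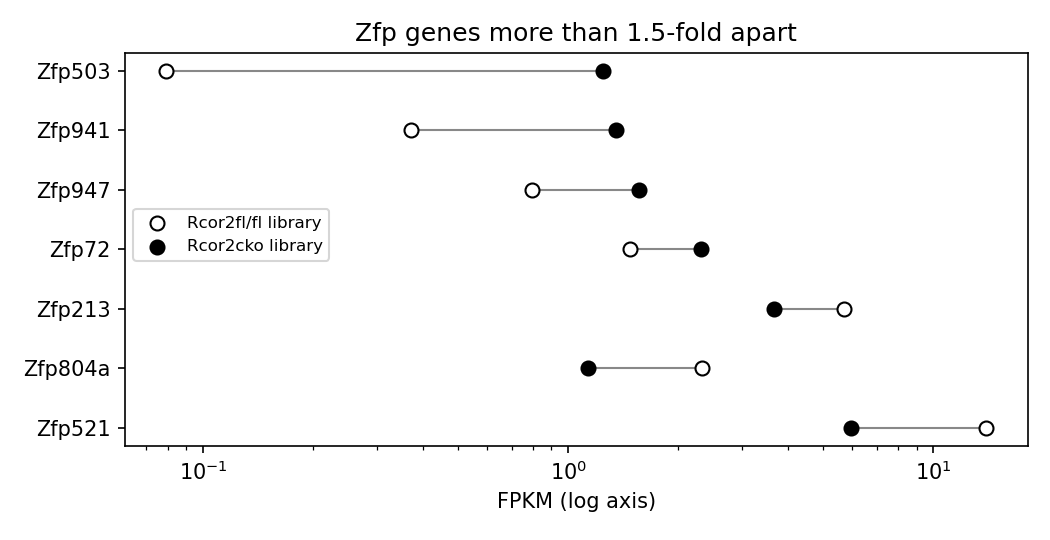
Levels of the 7 Zfp genes more than 1.5-fold apart. The horizontal axis is FPKM on a log axis, open circles are the control library and filled circles the Rcor2cko library, 1 library each. The 4 higher genes stay at or below 2.31 FPKM in both libraries, and among the lower genes Zfp521 has the highest level.

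Of 16 genes listed for neural development, 15 were expressed, with 1 higher (Zfp503), 2 lower (Zfp521 and Zfp804a) and a median of 0.00. All genes passed 1.5-fold in 5.54% of cases, but this list was drawn up with earlier results of these data known, so nothing is read from its count. Among its other genes, Zfp462, a large protein with 33 fingers needed for normal brain growth, was at 52.3 and 44.2 FPKM, a change of -0.24 (-0.28 to -0.21). Zfp536, a brain repressor of neuronal differentiation, was at 5.29 and 4.57 FPKM (-0.21, interval -0.40 to -0.02). Zfp644 was at 13.4 and 15.1 FPKM (0.18, 0.08 to 0.28). These differences exceeded counting error and were all well under 1.5-fold. Zfp335, mutated in human microcephaly and part of a methyltransferase complex, was at 11.7 and 10.9 FPKM (-0.11, -0.23 to 0.01). The highest values of the list below 1.5-fold were those of Zfp703 (0.50) and Zfp423 (0.42), given above beside their paralogs. Zfp711, Zfp191, Zfp238, Zfp488, Zfp292 and Zfp354c lay between -0.02 and 0.06.

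Of 8 genes known to silence retroelements or to guard imprinted loci, 6 were expressed and none passed 1.5-fold, where 5.54% of all genes did. The median of the 6 was 0.08, beside -0.03 over all genes. Earlier results of these data were known when this list was drawn up, so nothing is read from its count. Zfp445, which acts with Zfp57 at imprinted regions, was at 43.2 and 46.9 FPKM (0.12, 0.07 to 0.17), and Zfp57 had a change of 0.23 over 4 transcript models. Both were somewhat higher in the Rcor2cko library. Zfp708 was at 3.86 and 4.31 FPKM, Zfp568, a repressor of a placental Igf2 transcript, at 1.91 and 1.98, Zfp932 at 14.9 in both and Zfp809, which silences murine leukaemia virus copies, at 2.31 and 2.19. Zfp42 (Rex1) and Zfp819, known from stem and germ cells, were listed at 0 in both libraries. Among the partners through which KRAB proteins work, 15 of 16 were measured, none passed 1.5-fold and 4 had values above 0, with a median of -0.10. Over all genes 5.54% passed 1.5-fold and 42.4% had values above 0. All 15 partners had a mean of at least 5 FPKM, where 1.87% of all genes passed 1.5-fold and 39.2% had values above 0. Trim28 was at 123 and 109 FPKM (-0.18, -0.22 to -0.13), Setdb1 at 27.1 and 25.003 (-0.12) and Chd4, a remodeller that also works with Hdac1 and Hdac2, at 82.7 and 72.4 (-0.19, -0.23 to -0.15).

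The Zfp genes for RNA and ribosome functions were 13 of 14 listed, and none of the 13 passed 1.5-fold, beside 5.54% of all genes. Of these, 11 were lower in the Rcor2cko library and 2 (15.4%) were higher, with a median of -0.11 and a range from -0.17 to 0.15. Over all genes 42.4% were higher and the median was -0.03. Among Zfp genes with 0 to 4 fingers 32.7% were higher, and among those without the KRAB pattern 36.9%. This list too was drawn up with earlier results of these data known, so nothing is read from its count. The lowest was Zfp385a, an RNA-binding partner of p53, at 9.69 and 8.62 FPKM (-0.17, -0.37 to 0.03). Zfp106, needed for motor neurons, was at 25.3 and 23.4 (-0.11, -0.17 to -0.05), and Zfp598, which marks collided ribosomes, at 16.3 and 14.99 (-0.12, -0.24 to 0.01). Only for Zfp106 of these 3 did the interval leave out 0. Zfp36 (tristetraprolin), which binds AU-rich elements and speeds mRNA decay, had the highest value, 0.15, with an interval from -0.28 to 0.60 at 2.50 and 2.79 FPKM.

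Of 21 genes for chromatin and promoters, 20 were expressed, 7 (35%) higher and 13 lower, none past 1.5-fold, with a median of -0.08. Over all genes 42.4% were higher, 5.54% passed 1.5-fold and the median was -0.03. None of the 20 had the KRAB pattern, and among all Zfp genes without it 36.9% were higher. As with the other lists, earlier results of these data were known when it was drawn up, so nothing is read from its count. The highest values were those of Zfp217, whose human counterpart sits in complexes with LSD1, CoREST and CtBP, at 4.10 and 5.78 FPKM (0.49), and of Zfp516, known from related complexes, at 6.04 and 8.06 (0.41). Both have 2 transcript models, so that no counting interval could be given. Zfp518a followed at 4.09 and 5.04 FPKM (0.30, 0.14 to 0.46). At the other end stood Zfp451, a SUMO ligase, at 10.1 and 8.58 (-0.23, -0.39 to -0.08), Zfp219 at 30.5 and 26.1 (-0.22, -0.32 to -0.12) and Zfp687 at 12.1 and 10.5 (-0.20, -0.33 to -0.08). Zfp687 and its relatives Zfp592 and Zfp532 form a complex with a histone-reading partner, and both relatives were at -0.09. Zfp143 and Zfp148, activators at many promoters, were at 0.08 and -0.02.

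**Figure D3:**
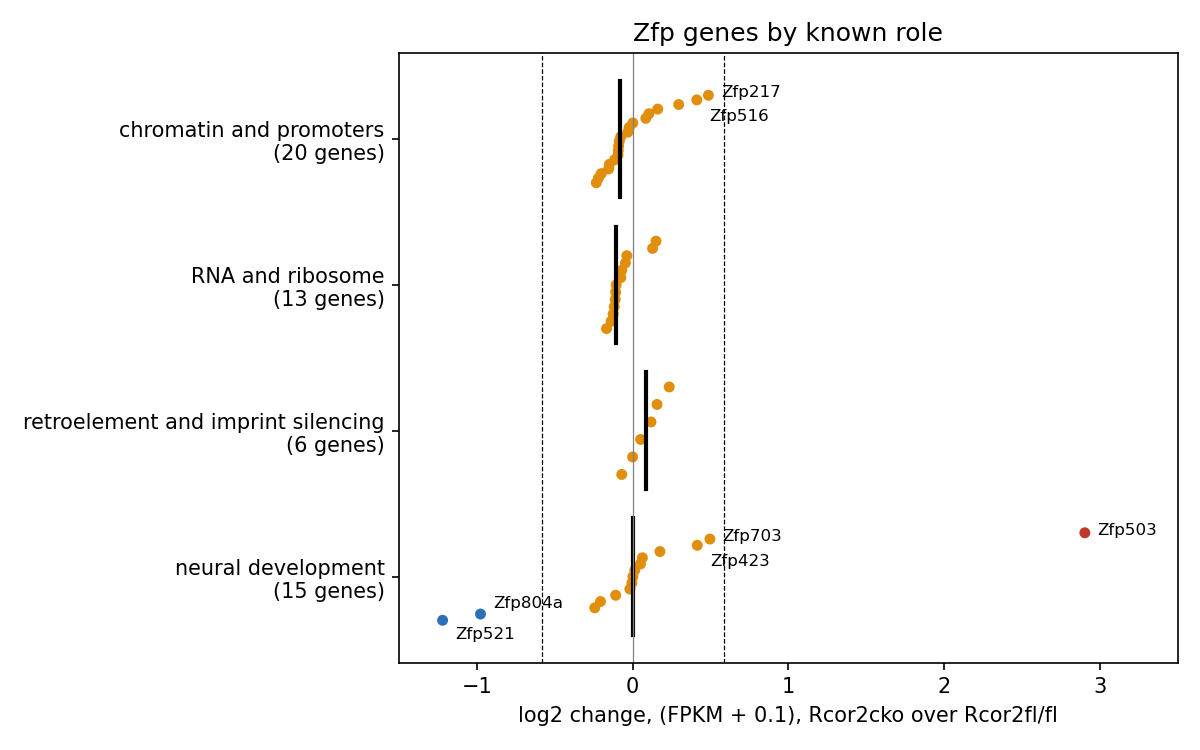
Zfp genes of 4 lists of known roles. The horizontal axis is the log2 change of (FPKM + 0.1), each point is 1 gene ordered by its value within its list, black bars are medians and dashed lines mark 1.5-fold. Zfp503 stands alone at 2.90, Zfp521 and Zfp804a lie below the lower line, and the RNA and ribosome genes lie between -0.17 and 0.15.

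The positions of the Zfp genes were compared next. Genes with a gap of at most 200 kb to the next were joined into runs, over all 353 genes, and a run of at least 3 was called a cluster. By this definition 156 of the 318 expressed genes lay in 27 clusters, 128 were isolated and 34 lay in runs of 2. Chromosomes 7, 17 and 13 held 77, 41 and 28 of them. Clustered genes had a median level of 5.33 FPKM and a median of 11 fingers, and isolated genes 9.23 FPKM and 7 fingers. The KRAB pattern was found in 99 of 154 clustered and 26 of 127 isolated genes with a protein model, so that position, domain and level went together.

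Clustered and isolated genes differed little. Medians were 0.02 for clustered and -0.02 for isolated genes, a difference of 0.03, and 84.6% and 86.7% of them lay within 0.25 of 0. The SD was 0.20 in clusters and 0.36 among isolated genes, and 0.17 and 0.21 among genes that reached 1 FPKM in both libraries, so the wider spread of isolated genes rests on a few of them. Beside 5.54% of all genes, 1 of 156 clustered genes passed 1.5-fold, Zfp947, and 4 of 128 isolated genes, Zfp503 and Zfp941 higher and Zfp521 and Zfp804a lower. Zfp947, Zfp503 and Zfp941 entered the set through the Rcor2cko library only. Zfp72 and Zfp213 lay in runs of 2. Genes of a cluster share sequence and position and are not independent of each other, and no test was made.

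Sorted by domain instead, the 139 genes with the KRAB pattern had a median of 0.05, with 89 higher and 50 lower, and the 176 without it a median of -0.03, with 65 higher and 111 lower. Over all genes the median was -0.03 and 42.4% of changes were above 0, so the genes without the pattern (36.9% above 0) lay near the rest and those with it (64.0%) above. The same order was seen among clustered genes, with medians of 0.05 and -0.05, and among isolated genes, with 0.07 and -0.02. Genes of a cluster are not independent, so clusters were also taken as units. Of the 15 clusters where most genes had the pattern, 7 had a median above 0 and 8 below, with a middle value of -0.0018. Of the other 12, 3 were above and 9 below, with a middle value of -0.04. Counted by cluster, those rich in the pattern thus lay on both sides of 0. Between means of 2 and 5 FPKM the medians were 0.05 and -0.02, and from 5 FPKM on 0.04 and -0.05. In the last range 61.4% of 70 genes with the pattern were above 0 and 33.1% of 127 without it, beside 39.2% of all genes. Below 2 FPKM the limit of 1 FPKM bears on the medians, since 6 of the 26 genes with the pattern did not reach it in both libraries, and no order is read there. Over the genes that reached 1 FPKM in both libraries the medians were 0.05 for 133 genes with and -0.04 for 175 without the pattern. All of these medians are far below 1.5-fold. The pattern, which spells the conserved end of the KRAB A box, misses some divergent domains, such as that of Zfp445, and was set after protein sequences had been seen. The group without the pattern is therefore not a group without the domain. By number of fingers, medians were -0.03 for 0 to 4, -0.03 for 5 to 9, 0.04 for 10 to 14 and -0.0022 for 15 or more.

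Between clusters, medians ran from -0.11 to 0.18, with 10 of 27 above 0. All expressed genes were higher in 4 clusters, of 15, 4, 3 and 3 expressed genes, and all were lower in 2, of 4 and 2. Over all genes 42.4% of changes were above 0, so 1 sign in a cluster of 4 or fewer genes says little. The genes of the cluster of 15 are not independent of each other, and it was singled out after its values had been seen. Of the 7 clusters with at least 8 expressed genes, the one on proximal chromosome 17 (chr17:21520712-22593656) had the highest median, 0.18, and the next had 0.06. Among the others, a second cluster on chromosome 17 (chr17:32902442-33531582) had 10 of 12 genes higher and a median of 0.06, and the largest cluster of chromosome 13 (chr13:67139530-67927937) 10 of 15 and 0.05. On chromosome 7, clusters of 14, 12 and 8 genes had medians of 0.01, -0.08 and -0.07. A cluster on chromosome 6 (chr6:47769265-48036592), with no KRAB pattern in any of its 7 genes with a protein model, had 7 of 8 genes lower and a median of -0.11. As the pattern misses divergent KRAB domains, these genes may still carry one.

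**Figure D4:**
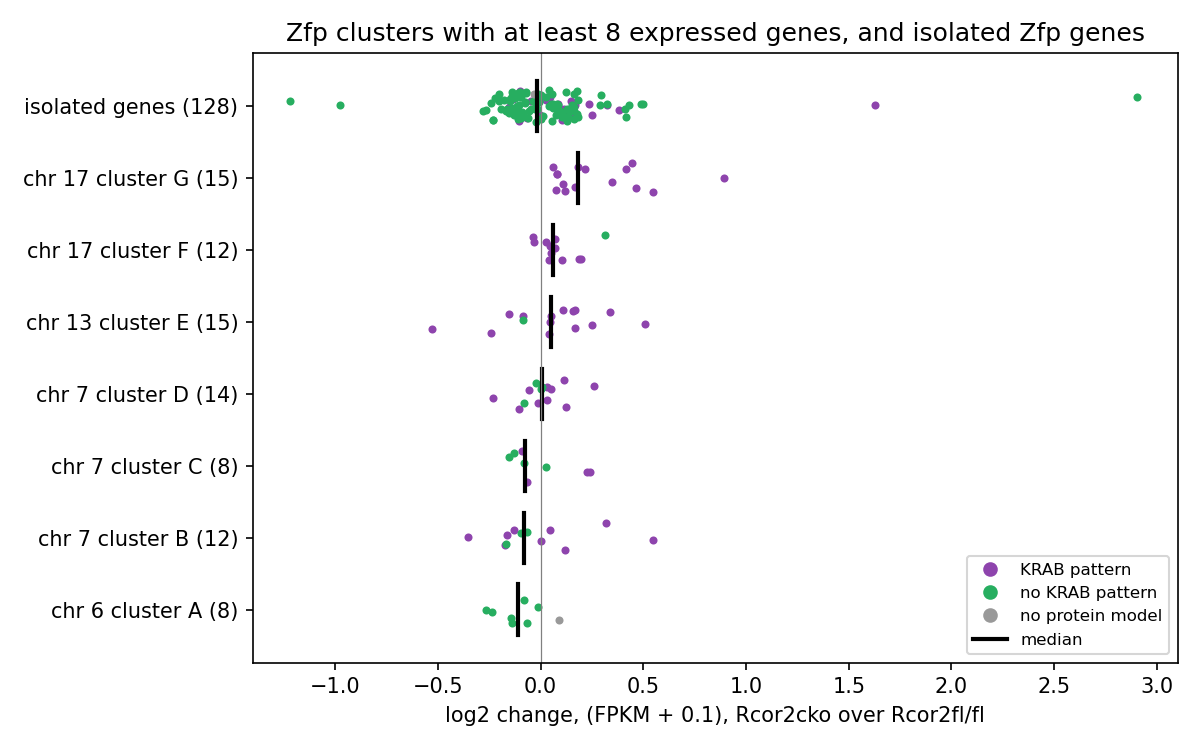
Changes in the 7 Zfp clusters with at least 8 expressed genes, ordered by median and lettered A to G, and in the isolated genes. The horizontal axis is the log2 change of (FPKM + 0.1), each point is 1 gene, purple with and green without the KRAB pattern and grey with no protein model, and black bars are medians. All 15 genes of cluster G, on proximal chromosome 17, lie above 0, and the most extreme values belong to isolated genes.

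The proximal chromosome 17 cluster was chosen for description after its values had been seen. It spans 1073 kb and holds 15 Zfp genes, all expressed and all with the KRAB pattern. All 15 were higher in the Rcor2cko library, by 0.06 to 0.89, and their summed level went from 69.5 to 78.1 FPKM. Only Zfp947 passed 1.5-fold. It was at 0.797 FPKM from 37 fragments and 1.56 FPKM from 98 fragments, a change of 0.89 (0.41 to 1.56). The counting interval lay above 0 in 4 of 15 genes, which are Zfp947, Zfp677 at 1.48 and 2.21 FPKM (0.55, 0.17 to 0.99), Zfp820 at 1.14 and 1.61 (0.46, 0.09 to 0.92) and Zfp758 at 2.16 and 2.77 (0.35, 0.02 to 0.71). For the other genes it included 0. Zfp54 and Zfp52 changed by 0.42 and 0.45 near 1 FPKM, and like Zfp947 they entered the set through the Rcor2cko library only, while the 2 highest genes, Zfp946 (13.9 and 14.97 FPKM) and Zfp760 (11.3 and 12.3), had changes of 0.11 and 0.12. The larger values thus belonged to the lower genes. The 1 expressed gene inside the cluster not named Zfp and a number, 3110052M02Rik, was at 4.60 and 5.61 FPKM (0.28). Whether it encodes a zinc finger protein was not examined. Without this cluster, clustered genes had a median of -0.0027, with 69 higher and 72 lower, and genes with the KRAB pattern a median of 0.04, with 74 higher and 50 lower.

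**Figure D5:**
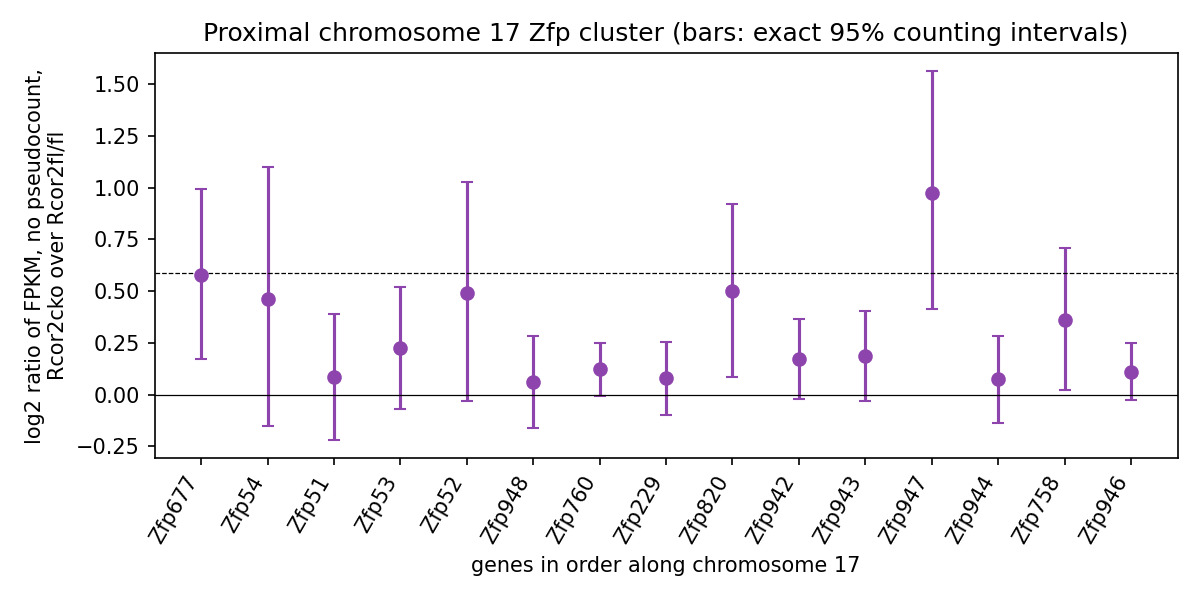
Zfp genes of the proximal chromosome 17 cluster in their order along the chromosome. The vertical axis is the log2 ratio of FPKM without pseudocount, Rcor2cko over Rcor2fl/fl, bars are exact 95% counting intervals, and the dashed line marks 1.5-fold. All 15 points lie above 0, and the bars of Zfp677, Zfp820, Zfp947 and Zfp758 leave out 0.

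The promoters of this cluster are shown for the 4 genes whose interval lay above 0, because the genes of the cluster lay on the same side of 0. They are the 150 bases before the start on GRCm38.p6, for Zfp947 at chr17:22165978-22166127 and Zfp820 at chr17:21845760-21845909 on the minus strand and for Zfp677 at chr17:21383598-21383747 and Zfp758 at chr17:22361313-22361462 on the plus strand. Capitals mark the GC box GGGCGG, the CCAAT box and the E-box CACGTG, searched on both strands. In Zfp947 the CCAAT and GC boxes overlap.
Zfp947: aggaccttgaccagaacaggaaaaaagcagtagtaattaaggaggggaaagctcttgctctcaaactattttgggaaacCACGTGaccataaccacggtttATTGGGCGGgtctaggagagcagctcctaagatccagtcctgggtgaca
Zfp820: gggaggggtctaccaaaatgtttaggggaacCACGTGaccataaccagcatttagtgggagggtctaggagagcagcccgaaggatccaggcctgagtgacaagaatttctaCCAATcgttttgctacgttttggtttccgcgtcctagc
Zfp677: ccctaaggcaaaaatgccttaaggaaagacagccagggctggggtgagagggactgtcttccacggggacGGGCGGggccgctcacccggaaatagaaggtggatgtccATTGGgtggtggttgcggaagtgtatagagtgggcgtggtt
Zfp758: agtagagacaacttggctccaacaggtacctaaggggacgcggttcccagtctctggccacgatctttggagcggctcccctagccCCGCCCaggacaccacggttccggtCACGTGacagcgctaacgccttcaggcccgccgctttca
Zfp947 and Zfp820 share the following run of 19 bases around the E-box, which no other gene in the promoter table held.
Shared run: aaccacgtgaccataacca
A second shared run, of 17 bases, was also present before Zfp946.
Second run: gggtctaggagagcagc
Over 250 bases before to 50 after the start, the E-box was present in 7 of the 14 cluster genes with a promoter, in 7.94% of 252 Zfp genes and in 8.09% of all 27025 genes. The GC box was present in 11 of 14, in 126 of 252 and in 38.2%, and the CCAAT box in 7 of 14, in 48.0% and in 41.1%. The TATA box TATAAA was in none of the 14, in 7.94% of Zfp genes and in 15.7% of all genes. Such matches are descriptions of the letters only. Isolated Zfp genes had more CG dinucleotides, with a median of 19 per promoter, than clustered ones, with 12, beside 7 over all promoters. Zfp942 and Zfp943, and Zfp944 and Zfp758, start back to back with overlapping promoter windows, and the changes within these pairs were 0.17 and 0.18, and 0.07 and 0.35.

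Sequence shared between Zfp genes limits how reads can be assigned to them. Of the 318 genes, 202 had no 50-base stretch in a protein-coding transcript of another gene, and 27 shared at least 10% of theirs. The most alike were Zfp955b (58.8%) and Zfp955a (57.0%), which share with each other, followed by Zfp932 (55.4%), Zfp934 (54.8%) and Zfp931 (52.6%), and the values of these genes are uncertain to that extent. The 27 genes had a median change of 0.05 and none passed 1.5-fold, where 5.54% of all genes did. In the proximal chromosome 17 cluster no gene reached 10%, and the highest share was 9.40%. On the X chromosome lay 5 of the Zfp genes, with changes from -0.20 to 0.04, in 2 libraries that differ in Xist.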

How the data were processed

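RNA of 1 Rcor2fl/fl and 1 Rcor2cko sample of E13.5 VZ-SVZ was sequenced by the authors from stranded mRNA libraries and mapped with TopHat to mm9. The submitters' processing notes name TopHat 1.3.3 and Cufflinks 1.2.0, and the methods of the study name a later TopHat release and Cuffdiff, which could not be reconciled here. The deposited values are FPKM with 95% bounds, per transcript for Rcor2fl/fl and per gene for Rcor2cko, so transcript rows were summed per gene. No replicate was analysed, and E15.5 was not analysed here.

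Ratios of (FPKM + 0.1) were taken with no further scaling over genes that reached 1 FPKM in either library. Low FPKM values are whole multiples of what 1 fragment is worth. With an effective-length offset fitted per library, 99.3% of 4019 and 99.4% of 3961 low values (up to 100 fragments, transcripts of at least 1000 nt) came out whole within 0.1. The recovery and intervals were also run on data simulated with the same formula. This checks the code and not whether the formula holds for these libraries. Locus starts were moved to 1-based positions. Fingers, the KRAB pattern and shared 50-base stretches were computed from GENCODE coding sequences and transcripts on the same build, in place of RefSeq proteins, and promoters came from RefSeq on GRCm38.p6, which matched 252 members by symbol. Python 3.11.15, numpy 2.4.6, pandas 2.3.3, scipy 1.17.1 and matplotlib 3.10.9 were used.

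The members, role lists and tests were chosen with earlier results of these data known. Named genes are all members past 1.5-fold, the 10 highest, the 3 on each side of the 1 FPKM limit and members of the role lists, of which those with values nearest the list's middle are given by counts. The chromosome 17 cluster, its genes and the gene inside it, Zfp879 and the genes with the most shared sequence were named after their values were seen. Alternatives for pseudocount, scaling, filters, transcripts, cluster distance and size, and shared sequence were computed.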

Additional observations from a re-analysis of the deposited data

How the results depend on the processing

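No paired analysis was possible because each genotype has 1 library. The number of Zfp genes more than 1.5-fold higher, 4 as reported, was 2 with a pseudocount of 1, 1 where both libraries had to reach 1 FPKM, 0 where 1 had to reach 5 FPKM, 2 above 2-fold, 2 where the deposited 95% FPKM intervals had also to be apart, and 25 with the highest transcript row per gene, a setting that lowers only the Rcor2fl/fl levels, which are given per transcript. The number lower, 3 as reported, was 1 above 2-fold. A pseudocount of 1 left Zfp213 (-0.53), Zfp72 (0.42) and Zfp947 (0.51) within 1.5-fold, and upper-quartile scaling Zfp213 (-0.57). The median of all members, -0.0027 as reported, was 0.032 with median scaling, 0.060 with upper-quartile scaling and 0.047 with the highest row per gene. For clustered members, at 0.02, these were 0.054, 0.082 and 0.047, and for isolated members, at -0.02, upper-quartile scaling gave 0.048 and the highest row 0.044. The medians therefore have no firm sign. The difference between clustered and isolated members stayed between 0.00 and 0.05 over 12 alternatives. The difference between members with and without the KRAB pattern, 0.085, stayed between 0.076 and 0.12 over 9 alternatives added after the data were seen, though the median without the pattern was 0.028 with upper-quartile scaling. The proximal chromosome 17 cluster had medians from 0.11 to 0.25 over 9 alternatives added after the data were seen, and all genes that remained were higher, 12 of 12 where both libraries had to reach 1 FPKM and 7 of 7 where 1 had to reach 5 FPKM. Depth limits the genes near 1 FPKM, where 3 of the 4 higher genes lie.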

Other observations

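Zinc finger genes named after other domains gave values like those of the Zfp genes. Of the Zbtb genes, whose proteins join fingers to a BTB domain, 32 were expressed, with a median change of 0.02, a range from -0.52 to 0.23 and none past 1.5-fold. Of the Zscan and Zkscan genes, which carry a SCAN domain, 16 were expressed, with a median of -0.06, a range from -0.39 to 0.44 and none past 1.5-fold. Over all genes 5.54% passed 1.5-fold.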
